A study of Mus musculus with 6 samples.

Results

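The genes of the cytosolic ribosome's proteins were examined in outer hair cells from the cochlea of Insm1-KO and Insm1-Het mice. Members were chosen by symbol alone: Rpl or Rps and a number with at most a letter and a digit after it, Rplp0 to Rplp2 and Rpsa, with pseudogene symbols left out. The rule found 83 of the 23337 symbols in the files, 51 of the large subunit and 32 of the small subunit. Of these, 76 passed the filter on low counts and were tested, 45 of the large and 31 of the small subunit. The 7 that were not tested were Rpl10l, Rpl26, Rpl30, Rpl34, Rpl39l, Rpl3l and Rps27.

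The cells came from the organ of Corti at embryonic stage E18.5 and were sorted as carriers of Insm1-GFP-Cre, which both genotypes therefore share. There were 3 Insm1-KO libraries and 3 Insm1-Het libraries, called KO and Het here, and no wild-type library. Insm1 encodes a zinc-finger transcription factor of nascent outer hair cells. Ribosomal RNA was depleted, and complementary DNA was made with random hexamers and amplified. Whether the libraries of a genotype came from separate animals or litters is not in the labels; p-values therefore cover only the variation among these 6 libraries, and that may be technical. In bulk samples, fewer cells of a type and less RNA per cell cannot be told apart.

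A ribosome pairs a small subunit, which holds the messenger RNA and reads its codons, with a large subunit, which joins the amino acids. Each ribosomal protein is needed in a fixed number of copies, and most are present once per ribosome. In mammals the messenger RNAs of these proteins begin with a run of pyrimidines, through which growth signals set how strongly they are translated. The genes are also known for their many processed pseudogenes, which are DNA copies of the spliced messenger RNA scattered over the genome. Developing hair cells build their stereocilia at this stage, and mature outer hair cells pack their lateral membrane with a motor protein. Hair cells are also known for their loss after aminoglycosides, antibiotics that bind bacterial ribosomes.

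Total counts were 9259736, 7705177 and 9748629 in KO replicates 1 to 3, against 11738214, 10721902 and 12427039 in Het replicates 1 to 3. Levels are CPM, a gene's counts divided by its library's TMM-scaled total. The targeted gene, Insm1, had 78.7, 60.3 and 18.7 CPM in the KO libraries, against 109, 116 and 69.2 CPM in the Het libraries, so RNA of the locus was counted in every KO library. Summed markers of general hair cells, 12 of 12 of them tested, lay between 10125 and 11699 CPM in KO and between 10086 and 10619 CPM in Het libraries. The 7 outer hair cell markers summed to between 588 and 685 CPM in KO and between 579 and 735 CPM in Het libraries. The 11 supporting cell markers summed to between 2535 and 3699 CPM in KO and between 2219 and 3453 CPM in Het libraries. Of 7 erythroid markers only Alas2 was counted, at 0.747, 4.96 and 2.67 CPM in KO and 0.651, 0 and 0.316 CPM in Het libraries. Every KO library was above every Het library, as in 5.08% of all tested genes, but KO replicate 1 and Het replicate 1 were nearly equal. Alas2 averaged 13.5 counts and was not tested. The other 6 were at 0 in all 6 libraries, but Hba-a1 and Hba-a2, and likewise Hbb-b1 and Hbb-b2, are near-identical copies, whose counts depend on how reads that fit both were treated. The 6 inner hair cell markers summed to between 417 and 714 CPM in KO and between 191 and 239 CPM in Het libraries, without overlap. Of the 4 tested, 3 had an unadjusted p under 0.05 by edgeR, namely Brip1, Tbx2 and Rprm, beside 5.34% of all genes. The median log2 fold change over the 4 was 2.88, and 0 passed an adjusted p of 0.05. This list was chosen with earlier results of these data known, so its share cannot be weighed against that of all genes. Most of the inner hair cell sum was Rprm, at means of 373 CPM in KO and 209.6 CPM in Het, and Brip1, at 195 and 2.14 CPM. Slc17a8, which was not tested, was near 0 in both genotypes, at means of 0.641 CPM in KO and 0.558 CPM in Het. Of the tested inner hair cell markers 3 were above 0 and 1 below, 4930506M07Rik with a log2 fold change of -1.77. The sum therefore does not describe each gene of that list. Sums in KO and then in Het libraries were 928 to 1583 and 974 to 1159 CPM for 10 neuron markers, 203 to 228 and 138 to 267 CPM for 7 glia markers, 241 to 348 and 248 to 446 CPM for 9 mesenchyme markers, and 37.6 to 136 and 86.5 to 169.7 CPM for 8 immune markers. KO replicate 3 stood apart: over the 11714 tested genes, the SD of log2 CPM around each gene's own mean was 1.39 there, against 0.85 to 1.06 in the other 5 libraries. For the results it moves most, values without it are given as well.

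Part of the sequence of these genes is not their own, and this bears on what a count per symbol can hold. Of the 83 members, 74 had at least 1 window of 100 bases of their transcript that also occurs in the transcript of another annotated gene, and for 72 of them a pseudogene was among those genes. How reads that fit several places were treated is not given in the sources used here. Rps27, a small subunit protein with a zinc finger, shows the extreme, with 98.4% of its windows found elsewhere. The first 60 coding bases of Rps27, of its retrogene Rps27rt and of its paralog Rps27l are printed because the 3 copies gave very different counts. Capitals mark bases of Rps27l that differ from Rps27; the sequences are from GENCODE M21 on GRCm38.
Rps27, minus strand, spliced from chr3:90213248-90213615: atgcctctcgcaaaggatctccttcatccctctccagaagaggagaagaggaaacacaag
Rps27rt, minus strand, chr9:114982648-114982707: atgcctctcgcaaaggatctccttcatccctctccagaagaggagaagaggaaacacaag
Rps27l, plus strand, spliced from chr9:66946175-66946884: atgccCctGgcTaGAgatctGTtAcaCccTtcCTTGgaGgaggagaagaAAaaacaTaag

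Over all 252 coding bases Rps27rt was identical to Rps27, whereas Rps27l differed at 60 bases, an identity of 76.2%. Rps27 had 0, 0 and 0 counts in the KO libraries, against 7, 0 and 0 in the Het libraries. Rps27rt, listed under the older symbol Gm9846, had 0 counts in all 6 libraries. Rps27l, none of whose windows occurred in another gene, had 138, 263 and 716 counts in the KO libraries and 552, 531 and 173 in the Het libraries. The copies that are identical to each other were thus listed at or near 0, and the copy that can be told apart was counted in every library.

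Levels per length were compared with shared windows across the family. CPM per kilobase of annotated exon is used for every comparison of levels between genes. The 16 members with under 10% of windows shared had a median of 96.4 CPM per kb and a range of 0 to 561; 5 of them are paralogs of another member, and the other 11 had a median of 195 CPM per kb. The 31 with 10% to 50% shared had a median of 23.2 CPM per kb. The 36 with 50% or more shared had a median of 6.84 CPM per kb and a range of 0.0249 to 135. Spearman's rho between shared windows and level was -0.43 across all 83 genes. Across the 77 that are not paralogs of another member it was -0.6, and -0.58 with the length of the main transcript in place of all exons. Genes are not independent replicates, and these points share all 6 libraries. Counted levels were thus lower at the median where more sequence was shared; the part of shared sequence in the levels was not tested.

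**Figure D1:**
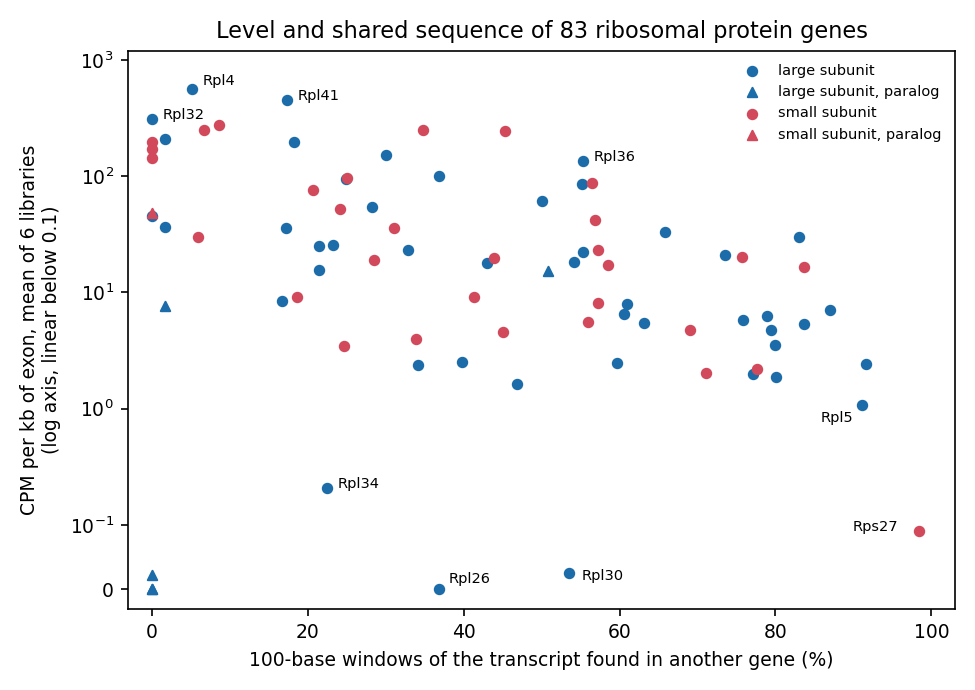
Each point is 1 of the 83 members, with the percentage of its 100-base transcript windows found in another gene on the x axis and its mean level over 6 libraries in CPM per kb of exon on the y axis (log axis, linear below 0.1). Colours mark the subunit and triangles the paralogs. Levels up to 561 CPM per kb lie at the left, and no member with 50% or more shared windows exceeds 135 CPM per kb.

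The most abundant tested members per length were Rpl4 with 561, Rpl41 with 449.5, Rpl32 with 311 and Rps15 with 274 CPM per kb of exon. Rpl4 reaches into the tunnel through which the new chain leaves, and Rpl41 is a very short peptide at the interface of the subunits. The least abundant tested members were Rpl5 with 1.07, Rpl12 with 1.63, Rpl24 with 1.89, Rpl17 with 1.98 and Rps12 with 2.04 CPM per kb. Their shared windows were 91.1% for Rpl5, 46.8% for Rpl12, 80.1% for Rpl24, 77.1% for Rpl17 and 71.1% for Rps12. Proteins that enter the ribosome in equal numbers were therefore counted at RNA levels that span over 2 powers of 10.

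Some members had no counted RNA at all. Rpl26, a universal protein of the large subunit, was at 0 in all 6 libraries, as were the testis paralog Rpl10l and the muscle paralog Rpl3l. A count of 0 allows up to 3 counts over a genotype, which is 0.115 CPM in KO and 0.0842 CPM in Het, and covers counting error only. Rpl30 had at most 2 counts in a library and Rpl34 at most 17. For Rpl26, 36.8% of windows occur in other genes. Members with a like share had widely different levels. Rpl14, with 36.9%, was counted at 101 CPM per kb, Rpl35a, with 34.2%, at 2.37 and Rpl28, with 39.8%, at 2.54. The part of shared sequence in the 0 of Rpl26 was not tested.

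Start sites were compared with the known pyrimidine run. In RefSeq's windows on GRCm38, 63 members were matched, with 75 annotated starts in all. The motif CTTTC, read on both strands within 30 bases before and 30 after the start, was in 40.0% of member starts and in 14.9% of all 32851 starts. On the gene's own strand, where the pyrimidine run lies, the shares were 30.7% and 7.93%. CGGAAG, the core bound by ETS-family factors, was in 60.0% of the 300-base windows of members and in 16.9% of all windows. AAGATGG, the core of the YY1 motif, was in 16.0% of member windows and in 6.34% of all windows. A match is only a description of the letters. The windows printed here run from 15 bases before the start to 14 after it. They belong to 5 members with CTTTC on the gene's own strand in that stretch, taken going down the levels. Their levels run from 85.3 CPM per kb for Rpl13a to 29.7 for Rpl35. More abundant members were passed over, among them Rpl4, Rpl41, Rpl32 and Rps15, which had no matched start or no CTTTC there. Capitals mark the motif.
Rpl13a, chr7:45128731-45128760, minus strand: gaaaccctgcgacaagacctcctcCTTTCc
Rps26, chr10:128626492-128626521, minus strand: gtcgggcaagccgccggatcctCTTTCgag
Rplp2, chr7:141447636-141447665, plus strand: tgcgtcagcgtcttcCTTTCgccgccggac
Rpl15, chr14:18270972-18271001, minus strand: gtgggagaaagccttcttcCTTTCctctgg
Rpl35, chr2:39005117-39005146, minus strand: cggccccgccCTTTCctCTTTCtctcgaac

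The summed share asks how much of each library the family takes up. All 83 members together held 0.843%, 0.810% and 0.747% of the counts in the KO libraries, against 0.863%, 0.836% and 0.841% in the Het libraries. Those are means of 0.800% ± 0.0489 in KO and 0.847% ± 0.0143 in Het (SD, n = 3 each), a difference of -0.0470 percentage points. The genotypes overlapped, since KO replicate 1 lay above 2 of the 3 Het libraries. Without KO replicate 3 the difference was -0.0204, and with the TMM-scaled total as the denominator it was -0.0106. No test was made of this sum.

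**Figure D2:**
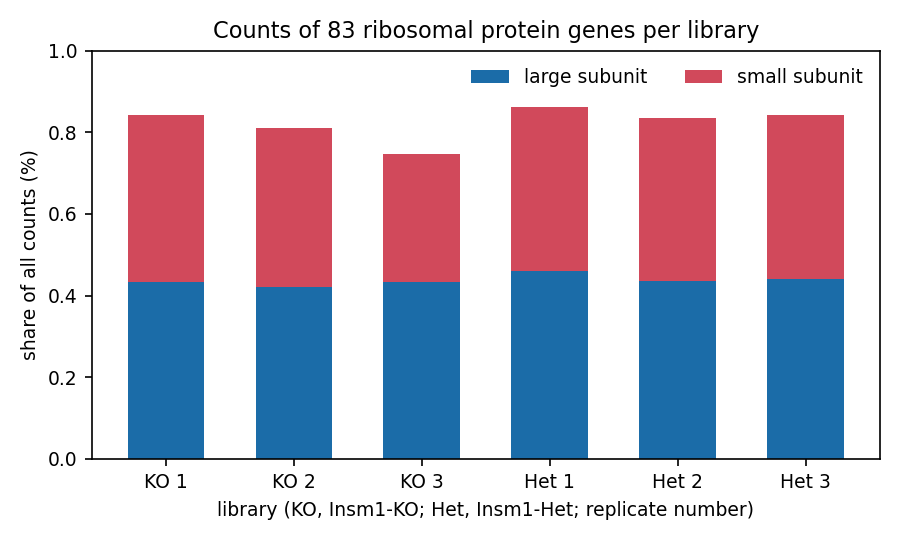
Bars give the percentage of all counts held by the 83 members in each of 3 KO and 3 Het libraries, split into large subunit (bottom) and small subunit (top). KO replicate 3 has the lowest total, 0.747%, and its small subunit part is 0.313%.

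The summed shares of the subunits differed in how they varied. Large subunit genes held 0.433%, 0.422% and 0.434% of the counts in the KO libraries, against 0.459%, 0.435% and 0.441% in the Het libraries. Small subunit genes held 0.410%, 0.387% and 0.313% in the KO libraries, against 0.404%, 0.400% and 0.401% in the Het libraries. The Het values of the small subunit lay within a narrow band, and KO replicate 3 lay far below it. Much of that gap was 1 gene, Rps3, with 356 CPM in KO replicate 3 against 906 to 1160.1 CPM in the Het libraries. The drop is therefore not a trait of the small subunit genes as a whole. Counts of the large subunit over those of the small subunit were 1.05, 1.09 and 1.39 in the KO libraries, against 1.14, 1.09 and 1.10 in the Het libraries. The mean difference of that ratio was 0.0685 with all libraries and -0.0364 without KO replicate 3.

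Few genes made up most of the sum. Of the 83 members, 8 held 50% of the family's counts over all libraries. Rpl4 alone held 14.2%, 11.1% and 11.8% of the family's counts in the KO libraries, against 16.0%, 14.6% and 14.1% in the Het libraries. Rps3, which sits where the messenger RNA enters and also takes part in DNA repair, held 12.7%, 9.60% and 4.40% in the KO libraries, against 11.7%, 13.8% and 11.0% in the Het libraries. The summed share therefore follows these genes more than the family as a whole.

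The genotype contrast was tested gene by gene with edgeR's quasi-likelihood test. No member passed a Benjamini-Hochberg adjusted p of 0.05; over all 11714 genes tested the count was likewise 0, a background of 0%. At an unadjusted p under 0.05 there were 0 of 76 members, against 626 genes or 5.34% of all genes. The smallest member p was 0.0716, of Rpl41, with an adjusted p of 0.938. DESeq2 and limma-voom also called 0 members, while over all genes DESeq2 called 26, or 0.222%, and limma-voom called 0. With no filter on low counts edgeR called 0 members beside 0.428% of all genes, and with the newer form of its fit or a replicate block it called 0 members beside 0.00854% of all genes. Without KO replicate 1, 4 members had an unadjusted p under 0.05, namely Rpl4, Rpl41, Rps3 and Rpsa of the 77 tested, beside 8.26% of all genes.

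Fold changes of the members were small beside those of other genes. The log2 fold change of KO over Het was above 0 in 46 members and below 0 in 30, or 60.5% above, against 50.9% above over all tested genes. The median was 0.12 for the members and 0.02 over all genes, and without KO replicate 3 that of the members was 0.04. By subunit, 25 large subunit genes were above 0 and 20 below, with a median of 0.05, and 21 small subunit genes were above 0 and 10 below, with a median of 0.25. Fold changes lay between -1.71, for Rpl17, and 1.39, for Rpl12, both counted at under 10 CPM on average. A log2 fold change beyond 1 in either direction was found for 6 members, 7.89%, and for 21.4% of all genes. Among the 25 members with a mean of at least 100 CPM, 14 were above 0 and 11 below, with a median of 0.05, the same as over the 2517 genes of that level. Those 25 fold changes lay between -0.46 and 0.53.

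**Figure D3:**
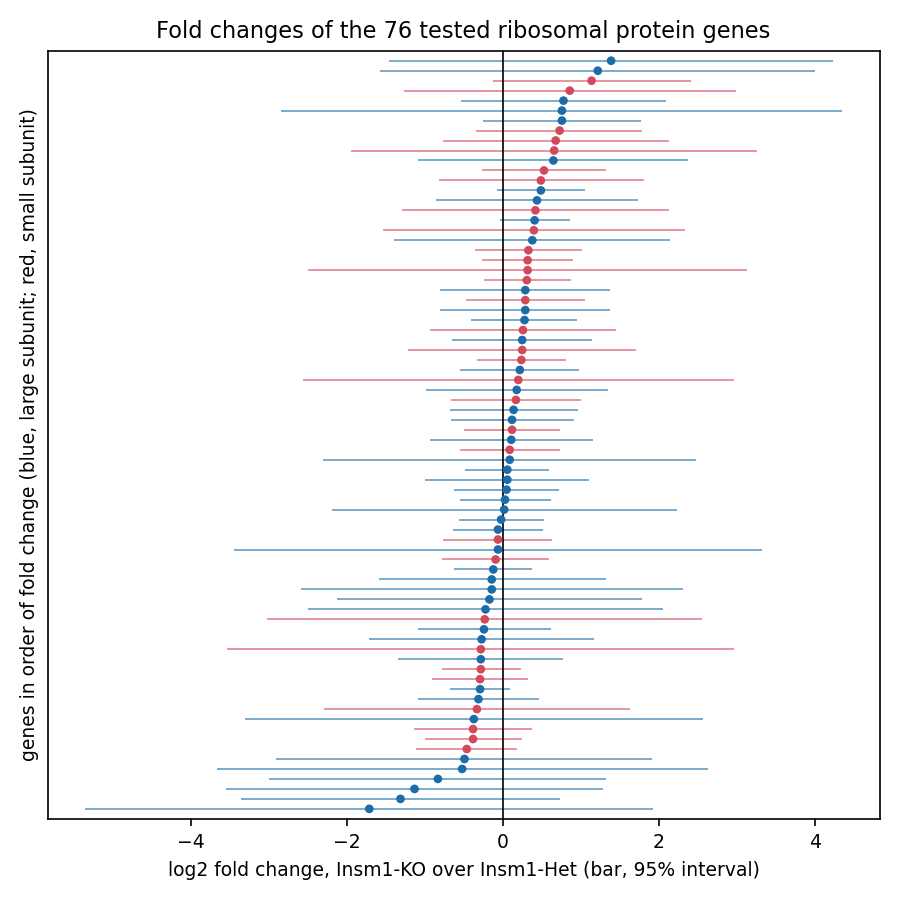
Points give the log2 fold change, KO over Het, of each of the 76 tested members on the x axis, with 95% intervals from the edgeR fit, ordered from high at the top to low at the bottom and coloured by subunit. Every interval includes 0, and the widest belong to genes with few counts.

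Small subunit proteins are taken first. Rps3 (chromosome 7, 99477896 to 99483738, minus strand, GRCm38) had 1062, 781 and 356 CPM in the KO libraries, against 967, 1160.1 and 906 CPM in the Het libraries. KO replicate 1 lay within the Het range, and KO replicate 3 was the lowest of all. Its log2 fold change of -0.46, with a standard error of 0.3, was -0.12 without KO replicate 3 and -0.83 without KO replicate 1.

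Rps3a, near the platform where initiation factors bind, shared that pattern. It had 272, 220.4 and 127 CPM in the KO libraries, against 264, 262 and 279 CPM in the Het libraries, a log2 fold change of -0.38 with a standard error of 0.29. The lowest library was KO replicate 3, and the highest KO value lay within the Het range. The log2 value was -0.11 without KO replicate 3 and -0.63 without KO replicate 1.

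Rps10 and Rps2 had positive values. Rps10 had 35.7, 73.4 and 65.3 CPM in the KO libraries, against 34.7, 28.0 and 42.6 CPM in the Het libraries, a log2 fold change of 0.73 with a standard error of 0.5. Rps2 had 26.1, 13.6 and 76.9 CPM in the KO libraries, against 27.9, 22.5 and 22.4 CPM in the Het libraries, a log2 fold change of 0.68 with a standard error of 0.67. The sign of Rps2 turned without KO replicate 3, to -0.28. Rps2 shares sequence with 36 pseudogenes, and exons on the opposite strand overlap both genes, so their counts are uncertain where strand is not stated.

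Rps6, the substrate of S6 kinase and the usual readout of growth signalling, had 19.3, 37.2 and 34.8 CPM in the KO libraries, against 23.7, 18.6 and 22.4 CPM in the Het libraries. The genotypes overlapped, with a log2 fold change of 0.49 and a standard error of 0.61. Rps19, the gene most often mutated in human Diamond-Blackfan anaemia, had 20.1, 48.7 and 70.4 CPM in the KO libraries, against 44.2, 31.3 and 40.5 CPM in the Het libraries. Its log2 fold change was 0.26 with a standard error of 0.55. Of 23 family members linked to that human disease 21 were tested, 11 of them above 0, with a median log2 fold change of 0.02 and 0 called.

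Among large subunit proteins, Rpl41 (chromosome 10, 128548114 to 128549305, minus strand, GRCm38) had 495, 573 and 729 CPM in the KO libraries, against 425, 473 and 455 CPM in the Het libraries. All KO values were above all Het values, with a log2 fold change of 0.41, a standard error of 0.21 and an interval of -0.04 to 0.86; without KO replicate 3 it was 0.25. Rpl4 (chromosome 9, 64173375 to 64178666, plus strand) had 1182, 902 and 953 CPM in the KO libraries, against 1316, 1228 and 1168 CPM in the Het libraries. Its log2 fold change was -0.29 with a standard error of 0.17, and KO replicate 1 overlapped the Het range. Rpl15 had a log2 fold change of -0.31 with a standard error of 0.36.

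Rpl39, a small protein at the wall of the exit tunnel, had 39.5, 82.0 and 75.0 CPM in the KO libraries, against 35.7, 35.8 and 44.7 CPM in the Het libraries. KO replicate 1 lay within the Het range, and the other KO libraries lay above it. The log2 fold change was 0.76 with a standard error of 0.47 and an adjusted p of 0.938 by edgeR. Rpl13a, which can also leave the ribosome to silence inflammatory messages in human cells, had 181, 229.9 and 221 CPM in the KO libraries, against 140.0, 168 and 142 CPM in the Het libraries. Its log2 fold change was 0.49 with a standard error of 0.26 and the genotypes did not overlap.

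The acidic stalk of the large subunit, Rplp0, Rplp1 and Rplp2, brings translation factors to the ribosome. Rplp0 had 353, 257 and 326 CPM in the KO libraries, against 323, 306 and 390.0 CPM in the Het libraries. Rplp2 had 81.9, 75.1 and 73.1 CPM in the KO libraries, against 76.2, 66.4 and 68.4 CPM in the Het libraries. The log2 fold changes were -0.12 for Rplp0, 0.14 for Rplp1 and 0.12 for Rplp2, each with overlapping genotypes. Rplp2 was among the steadiest members, with an SD of log2 CPM within genotype of 0.1.

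Rpl5, Rpl11, Rpl23 and Rps7 can bind Mdm2, the ubiquitin ligase of p53, when ribosome assembly is disturbed. Rpl23 had 44.1, 63.6 and 31.6 CPM in the KO libraries, against 45.4, 39.9 and 48.4 CPM in the Het libraries, so the KO values lay on both sides of the Het values. The log2 fold changes were -0.37 for Rpl5, -0.14 for Rpl11, 0.06 for Rpl23 and -0.33 for Rps7, with standard errors of 1.37, 1.14, 0.49 and 0.91. Rpl5, Rpl11 and Rps7 were counted at means of 4.18, 6.61 and 11.1 CPM, and their intervals are accordingly wide, from -3.31 to 2.57 for Rpl5.

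Paralogs were read beside their closest member. In mice, Rpl22 protein holds down Rpl22l1 by acting on its RNA. Rpl22 had 155, 97.7 and 154 CPM in the KO libraries, against 108, 149 and 136 CPM in the Het libraries, and Rpl22l1 had 24.5, 38.5 and 52.1 CPM in the KO libraries, against 14.5, 17.8 and 34.6 CPM in the Het libraries. The log2 fold changes were 0.05 for Rpl22 and 0.78 for Rpl22l1, with standard errors of 0.31 and 0.61. Without KO replicate 3 the value of Rpl22l1 was 0.5, and without Het replicate 3 it was 1.26. Rpl22l1 overlaps exons on the opposite strand.

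Rps27l, which is induced by p53 in human cells, had 14.7, 34.3 and 79.7 CPM in the KO libraries, against 45.0, 49.7 and 13.7 CPM in the Het libraries. Both genotypes spanned a wide range, and the log2 fold change was 0.25 with a standard error of 0.68. Rpl7 had 135, 147 and 163 CPM in KO and 143, 142 and 149 CPM in Het libraries, and its paralog Rpl7l1 had a log2 fold change of -0.27. Rpl39l, the testis paralog of Rpl39, had 0.111 CPM in KO replicate 3 and 0 in the other 5 libraries. Rpl10 and Rpl3, the ubiquitous partners of Rpl10l and Rpl3l, had log2 fold changes of 1.22 and -1.31, with standard errors of 1.3 and 0.95.

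Members whose genotypes did not overlap were few. In 7 members, or 9.21% of those tested, every KO library was above every Het library, beside a background of 5.08% of all tested genes. Among them were Rpl13a, Rpl35, Rpl37, Rpl41, Rpl7a and Rps14. In 0 members was every KO library below every Het library, beside a background of 6.10%. Rps14, lost in the human 5q deletion syndrome, had 199, 226 and 182 CPM in KO and 163, 151 and 175 CPM in Het libraries. Rpl37 had a log2 fold change of 0.44 and Rpl35 of 0.29, with standard errors of 0.6 and 0.51, and without KO replicate 3 Rpl37 had 0.21. Leaving out 1 library can only keep or raise such a count. It moved the count of 7 to between 9 and 20, while the background moved to between 8.77% and 11.3%. Without KO replicate 1 it was 20 of 76 members, or 26.3%, beside 11.3% of all genes. Without KO replicate 3 it was 12, or 15.8%, beside 1175 of the 11714 genes. Without Het replicate 3 it was 14, or 18.4%, beside 9.41% of all genes.

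**Figure D4:**
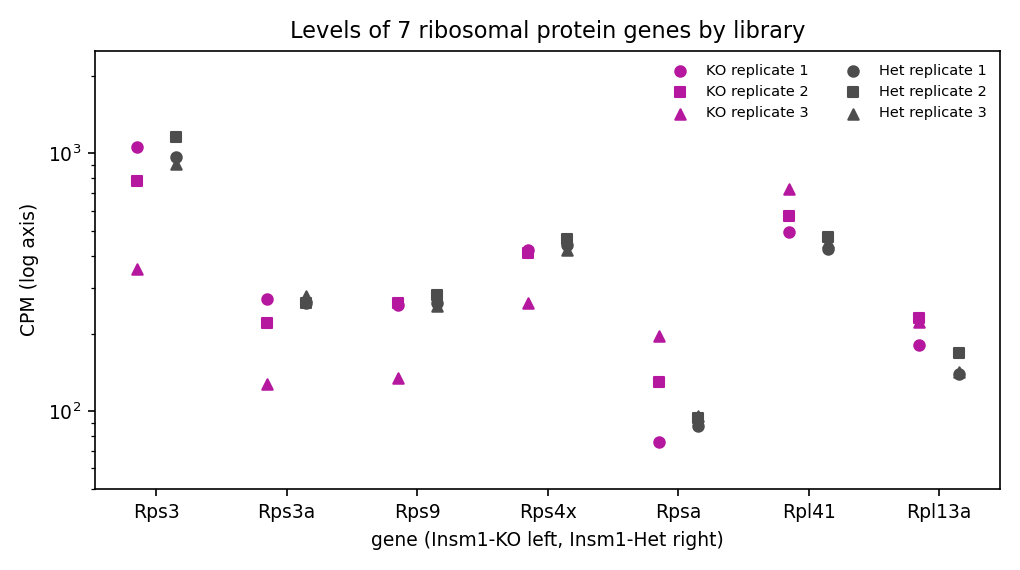
CPM (log axis) of 7 members in each library, with the 3 KO libraries left and the 3 Het libraries right of each gene's tick and a marker shape for each replicate number. KO replicate 3, the triangle, is the lowest library for Rps3, Rps3a, Rps9 and Rps4x and the highest for Rpsa and Rpl41.

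KO replicate 3 carried much of the spread. Among the 25 members with at least 100 CPM, it was the lowest of the 6 libraries for 8 and the highest for 8, 32.0% each. Over the 2517 genes of that level it was the lowest for 24.3% and the highest for 35.3%. The low members were mostly of the small subunit: 7 of 15 small subunit genes and 1 of 10 large subunit genes. Set against the mean of the other 5 libraries, Rps3 stood at -1.44 on the log2 scale, Rps3a at -1.02, Rps9 at -0.97 and Rps4x at -0.72. In the same library 5 small subunit genes were the highest of 6, among them Rpsa at 1.03, Rps24 at 0.76 and Rps20 at 0.72. Rpsa is also known as the laminin receptor precursor. Small subunit genes were thus displaced both ways in that library. It also had the lowest Insm1 level, 18.7 CPM. Its marker sums were the highest of the 6 for general hair cells, 11699 CPM, inner hair cells, 714 CPM, and supporting cells, 3699 CPM. Single markers went both ways there. Of the inner hair cell sum 422 CPM was Brip1, whereas Rprm, at 282 CPM, was at its lowest among the KO libraries. Gfi1 of the general hair cell list, at 114 CPM, and Fgfr3 of the supporting cell list, at 216 CPM, were at their lowest of the 6. The sums therefore do not describe each gene of these lists. The part of Insm1 and of these markers in the displaced values was not tested.

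**Figure D5:**
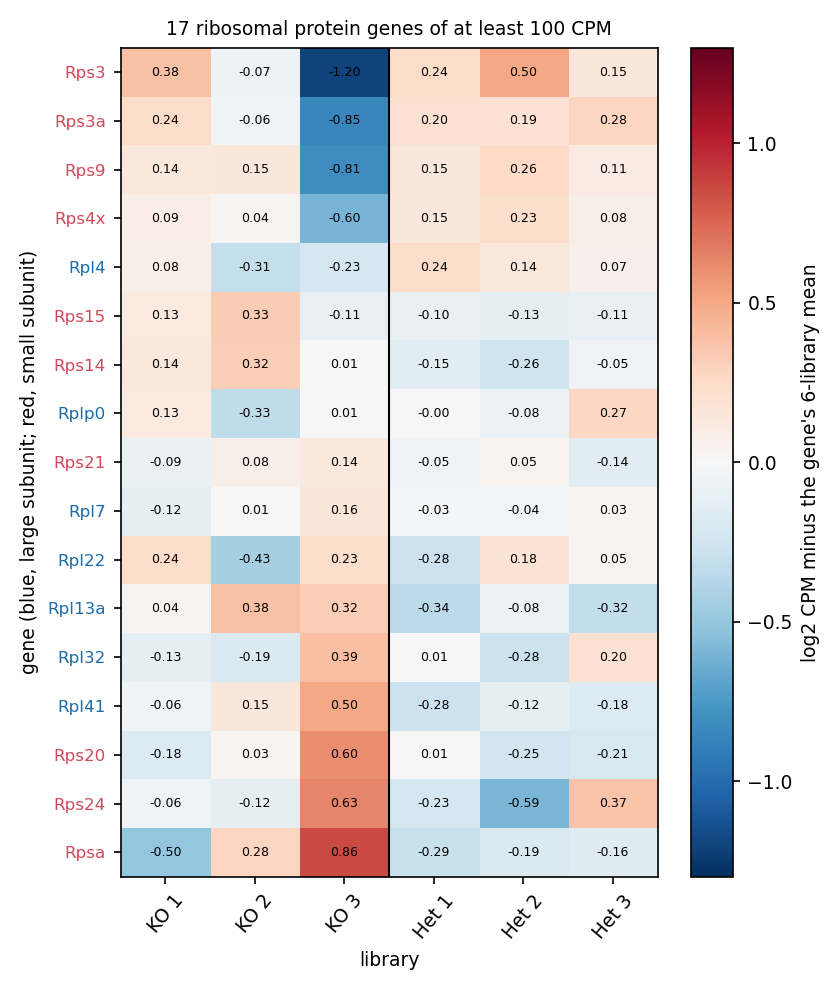
Cells give log2 CPM minus the gene's mean over 6 libraries for 17 of the 25 members with at least 100 CPM, KO libraries left and Het libraries right, ordered by how far KO replicate 3 lies from the other 5. The KO 3 column runs from -1.20 for Rps3 to 0.86 for Rpsa, and the other 5 columns stay between -0.59 and 0.50.

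Members showed little common variation across the libraries. The mean Pearson correlation over all pairs of the 76 tested members was 0.02 over the 6 libraries, and 0.02 after genotype means were removed. It was -0.01 among large subunit genes, 0.04 among small subunit genes and -0.03 among the 25 abundant members, and it was 0.0 over all tested genes. These pairs share the same 6 libraries and their depth. In KO replicate 2, 67.1% of members were above their own mean, against 52.7% of all genes, and in KO replicate 1 the shares were 40.8% and 53.2%.

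The spread within a genotype was small for abundant members. The SD of log2 CPM within genotype had a median of 0.44 over the 76 tested members and of 0.73 over all tested genes. For genes of at least 100 CPM those medians were 0.29 and 0.34. Among members with a mean of at least 20 CPM, the smallest SDs were those of Rplp2 and Rpl7 at 0.1 and Rps21 at 0.11. The largest were 1.64 for Rpl9, 1.12 for Rps27l and 0.91 for Rpl21. Rpl9, at 14.1, 46.2 and 1.78 CPM in the KO libraries, against 21.1, 19.6 and 28.9 CPM in the Het libraries, has 87.0% of its windows in other genes, and Rpl21 shares windows with 39 pseudogenes. Across the 73 tested genes that are not paralogs of another member, Spearman's rho of the SD was 0.48 with shared windows and -0.68 with mean log2 CPM.

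Several members carry small nucleolar RNAs, which guide modification of ribosomal RNA, in their introns. Only RNAs lying wholly in a stretch that no annotated exon of the gene covers were counted, which gave 17 hosts. A host whose introns are covered by exons of another of its transcripts would fall among the other members. The median level of the 17 was 23.2 CPM per kb of exon, against 17.1 for the 66 other members. The median log2 fold change of the 17 was -0.06, against 0.12 for the 59 other tested members. With hosts possibly missed, these medians do not cleanly compare hosts with genes that are not hosts. Host genes outside the family were read from a list of 10, of which 9 were tested: 1 was above 0 and 8 below, with a median of -0.45 and 0 called. Snhg12 had 1.49, 0.913 and 1.34 CPM in the KO libraries, against 12.3, 24.9 and 8.22 CPM in the Het libraries, a log2 fold change of -3.59 with an adjusted p of 0.918 by edgeR. Gas5, the most abundant of the list, averaged 179 ± 31.2 CPM in KO and 189.9 ± 22.0 CPM in Het (SD, n = 3 each).

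The rest of the translation machinery gave 0 calls in either direction by edgeR. Of 41 tested initiation factors 22 were above 0 and 19 below, with a median of 0.01, and 1 had an unadjusted p under 0.05, beside 5.34% of all genes. That was Eif1a, a factor of start codon scanning, with 68.1, 42.8 and 77.2 CPM in the KO libraries, against 123, 81.7 and 133 CPM in the Het libraries and an adjusted p of 0.922. Of 11 elongation and termination factors 6 were above 0 and 5 below, with a median of 0.01. Eef1a1, which delivers transfer RNAs, averaged 2897 ± 132 CPM in KO and 2884 ± 98.3 CPM in Het (SD, n = 3 each).

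Of 65 ribosome assembly genes 34 were above 0 and 31 below, with a median of 0.02. Ncl, the nucleolar protein nucleolin, averaged 648 ± 43.2 CPM in KO and 601 ± 110.0 CPM in Het (SD, n = 3 each). Taf1c, of the initiation complex of RNA polymerase I, had 34.8, 14.0 and 5.79 CPM in the KO libraries, against 3.18, 2.53 and 2.69 CPM in the Het libraries. Its log2 fold change was 2.7 with a standard error of 1.05 and an adjusted p of 0.920.

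Of 17 growth control genes 9 were above 0 and 8 below, with a median of 0.12. Mycn, a transcription factor that drives ribosomal protein genes in neural tumours, had 4.06, 4.70 and 6.79 CPM in the KO libraries, against 13.0, 20.4 and 31.5 CPM in the Het libraries. The genotypes did not overlap, and the log2 fold change of -2.06 had an adjusted p of 0.920 by edgeR. Of 4 ribosomal genes whose symbols fall outside the naming rule, 1 was above 0 and 3 below; Gnb2l1, the scaffold also called Rack1, averaged 294 ± 41.7 CPM in KO and 316 ± 49.7 CPM in Het (SD, n = 3 each).

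Mitochondrial ribosomal proteins, which are coded in the nucleus for another ribosome, served as a second family of like size. Of 75 tested genes 37 were above 0 and 38 below, with a median of -0.01. By edgeR 5 of the 75 had an unadjusted p under 0.05, a share near the 5.34% of all genes. Mrpl3 had 56.6, 65.3 and 153 CPM in the KO libraries, against 33.7, 21.4 and 27.6 CPM in the Het libraries. All KO values were above all Het values, with a log2 fold change of 1.73, a standard error of 0.5 and an adjusted p of 0.918 by edgeR.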

How the data were processed

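The files the authors deposited hold raw read counts, 1 whole number per symbol, for 6 libraries. The tools were Trimmomatic, STAR and HTSeq on GRCm38 (mm10), per the submitters' processing notes (version, strand and multi-read setting: not given in the sources used here). Genes were kept by filterByExpr (minimum count 10, minimum total 15), which left 11714; the rest held 0.274% of counts. Genotype was the only term in edgeR 4.0.16 (R 4.3.3) with TMM and Benjamini-Hochberg adjustment over all genes; the standard error is the log2 fold change over the square root of F. The fit was tested on simulated data. Log2 CPM used a prior count of 2. Windows of 100 bases were compared among GENCODE M21 transcripts; coordinates are 1-based. Members, lists and the naming rule were chosen with earlier results of these data known. Named members were the extremes of fold change, level and spread, non-overlapping genes, paralogs and functional groups; other names were chosen after their values were seen, and some genes the rule gives are not reported here. Same-numbered KO and Het libraries did not vary together (r of 0.0073 to 0.0144), so numbers were not treated as pairs. Alternatives were DESeq2 1.42.0, limma 3.58.1 (voom), other scalings and filters, a block and single libraries left out.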

Additional observations from a re-analysis of the deposited data

How the results depend on the processing

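The count of members past the threshold was 0 under each of the 16 alternatives run. Over all genes the count of 0 became 26 with DESeq2, 67 with no filter on low counts, 1 with the newer form of the fit and 1 with the replicate number as a replicate block; it was 0 with each single library left out. At an unadjusted p under 0.05, 1 member was counted with DESeq2, with limma-voom (Rps3), with no filter (Rps3) and with the replicate block (Rps3), and 4 without KO replicate 1 (Rpl4, Rpl41, Rps3 and Rpsa), where all genes stood at 8.26%. Members above 0 numbered 42 to 50, and their median log2 fold change lay between 0.04 and 0.2. The difference in summed share was -0.0106 with the TMM-scaled total and -0.0686 to -0.0204 with 1 library left out. The difference in the ratio of subunits was -0.0364 to 0.130 with 1 library left out. The mean pairwise correlation was 0.0 to 0.03 with 1 library left out. The count of members with every KO library above every Het library can only stay or rise when 1 library is left out. It was then 9 to 20 of 76, beside 8.77% to 11.3% of all genes. It was 20 (26.3%) without KO replicate 1, 12 (15.8%) without KO replicate 3 and 14 (18.4%) without Het replicate 3. Of 135 alternative log2 fold changes of 15 members, 134 kept their sign and 0 were called; Rps2 ranged from -0.28 without KO replicate 3 to 1.1 without KO replicate 2. Causes were not tested. Depth limits the members under about 10 CPM, whose intervals span several log2 units.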
